A study of Mus musculus with 32 samples.

Results

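Fos, Fosb, Jun, Junb, Jund, Egr1, Egr2, Nr4a1, Atf3 and Dusp1 are immediate early response genes, listed by name while earlier results of these data were known. All 10 were found in each deposited table, the largest of which list 74021 genes. Immediate early genes are transcribed soon after a cell is stimulated, without new protein synthesis, by factors that are already present and are switched on by phosphorylation. FOS and FOSB pair with JUN, JUNB or JUND to form the AP-1 transcription factor, EGR1 and EGR2 are zinc finger transcription factors, and NR4A1 is an orphan nuclear receptor. ATF3 is a stress-induced factor of the wider AP-1 group, and DUSP1 is a phosphatase that switches off MAP kinases. Several of these genes are also known to be turned on in microglia by tissue dissociation and sorting.

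RNA was measured in 32 libraries from the lumbar spinal cord of mice, most of them SOD1G93A mice, which carry a mutant human SOD1 transgene and develop motor neuron disease. In the first experiment, CD11b+/CD45int microglia from P140 SOD1G93A mice were split by a surface stain into LAG-3-high (5 libraries) and LAG-3-low (5 libraries) cells and set beside unsplit microglia from non-transgenic WT mice (4 libraries, age not given in the sources used here). In the second, CD11b+/CD45int microglia came from SOD1G93A mice with intact Lag3 (LAG-3+/+) or a germline disruption of Lag3 in all cells (LAG-3-/-), at P120 and P140 (120 and 140 days of age), with 3 libraries for each genotype and age. In the last, whole lumbar cord was taken at P140 from SOD1G93A mice of the same 2 Lag3 genotypes (3 libraries each). All mice but the WT ones carried the SOD1G93A transgene. Microglia were released by trituration on ice before sorting, while cord tissue was frozen at once in liquid nitrogen. Per the study's sample list each group held libraries from both sexes, which were not modelled, and the sources used here do not tie libraries to single animals, so the p-values measure the spread between libraries.

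Upstream of several of these genes lie short sequences through which signals reach them, and matches to some of these are shown here. The 500 bases upstream of the start of each gene's canonical GENCODE transcript were searched on both strands for the CArG box bound by serum response factor, for TGACGTCA bound by CREB and ATF proteins, for TGACTCA bound by AP-1 itself, and for GCGTGGGCG bound by EGR factors. The TGACGTCA and TGACTCA motifs cannot match at the same letters. A CArG box was found for 3 of the 10 genes (Fos, Fosb and Egr2), against 2.76% of 21770 protein-coding promoters. TGACGTCA was found for Jund and Dusp1, against 1.96% of the promoters. Neither TGACTCA (7.57% of the promoters) nor GCGTGGGCG (0.73%) was found in any member's window. Only exact matches to these patterns in this window were sought. A gene without a match may hold a variant site, or a site elsewhere, so the matches do not divide the members by route. The matches follow from GRCm39, read 5′ to 3′ on the gene's strand with the motif in capitals, and each lies upstream of that transcript. Those of Fos, Fosb and Jund lie outside the annotated gene, while those of Egr2 and Dusp1 lie within it, since longer annotated transcripts of these genes start further upstream.
Fos, chr12:85520343-85520376, plus strand: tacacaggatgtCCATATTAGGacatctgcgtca
Fosb, chr7:19044221-19044254, minus strand: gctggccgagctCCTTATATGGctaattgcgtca
Egr2 distal box, chr10:67373312-67373345, plus strand: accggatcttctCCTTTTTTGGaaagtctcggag
Egr2 proximal box, chr10:67373615-67373648, plus strand: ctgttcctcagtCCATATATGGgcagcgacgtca
Jund, chr8:71151373-71151404, plus strand: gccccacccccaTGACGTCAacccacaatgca
Dusp1, chr17:26727570-26727601, minus strand: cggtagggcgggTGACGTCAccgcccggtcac

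Libraries held between 9403475 and 49512632 estimated counts. Lag3 itself followed the labels, with CPM (counts scaled to library size, with TMM factors) from 146 to 195 in the LAG-3-high group, from 34.7 to 57.7 in the LAG-3-low group and from 0.506 to 9.97 in WT libraries. In LAG-3-/- microglia Lag3 stood at 0.0238 to 0.461 CPM against 24.4 to 62.9 in LAG-3+/+ microglia. All 9 microglial markers in the tables, P2ry12 and Tmem119 among them, were detected in each microglial library. The sorted cells also differed in markers of other cells. The 10 neutrophil markers summed to between 3.18 and 8.21 CPM, as a share of the library total, in LAG-3-high cells. In LAG-3-low libraries the sum ran from 25834 to 70888, while the 4 WT libraries had 6204, 44515, 10135 and 60447. The 4 monocyte markers reached at most 5.34 CPM in LAG-3-high libraries and 1758 to 4756 in those of LAG-3-low cells. WT libraries had the fewest genes with a count (17031 to 20398, against 20527 to 26852 in the SOD1G93A libraries of that table), and WT libraries 1 and 4 had the highest summed mitochondrial transcripts of the table (28442 and 34515 CPM). The part of neutrophils, monocytes and RNA quality in the results that follow was not tested.

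The members did not share one level. Levels per length are given here as CPM per kilobase of the longest protein-coding transcript, with the median over the 26 microglial libraries. Junb was the highest member in microglia, at 124 CPM per kilobase (range 38.8 to 196), and stood between the 90.8th and 98.7th percentile of genes tested. Atf3 followed at 50.6, Jund at 32.8, Jun at 27.3, Egr1 at 26.9 and Egr2 at 20.4, and the ranges of these genes overlapped. Dusp1 (4.85), Fos (1.03) and Nr4a1 (0.229) were lower. These 3, and Egr1 and Egr2, were at 0 in at least 1 library. Fosb was at 0 in 25 of the 26 microglial libraries and reached 0.0967 CPM in the other, at or under the floor of 3 counts, so it failed the filter on low counts and was not tested in microglia.

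In whole cord the order was another one. Jund led at a median of 114 CPM per kilobase over 6 libraries, followed by Jun at 24.6, Junb at 16.03 and Fos at 14.3. Fosb was detected in all 6 cord libraries, at 1.93 to 3.17 CPM. Summed per length over Fos, Fosb and the 3 Jun genes, Junb made up 54.1% to 84.0% of the Jun genes in microglia and 7.67% to 13.5% in cord, and Jund made up 0.227% to 30.9% in microglia and 67.2% to 80.4% in cord. Fos with Fosb made up 0% to 8.86% of the 5 genes in microglia and 5.34% to 13.3% in cord. Sorted cells and cord were prepared with different kits and normalized separately, so these levels stand side by side without a test, and cell type, handling and kit cannot be told apart.

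**Figure D1:**
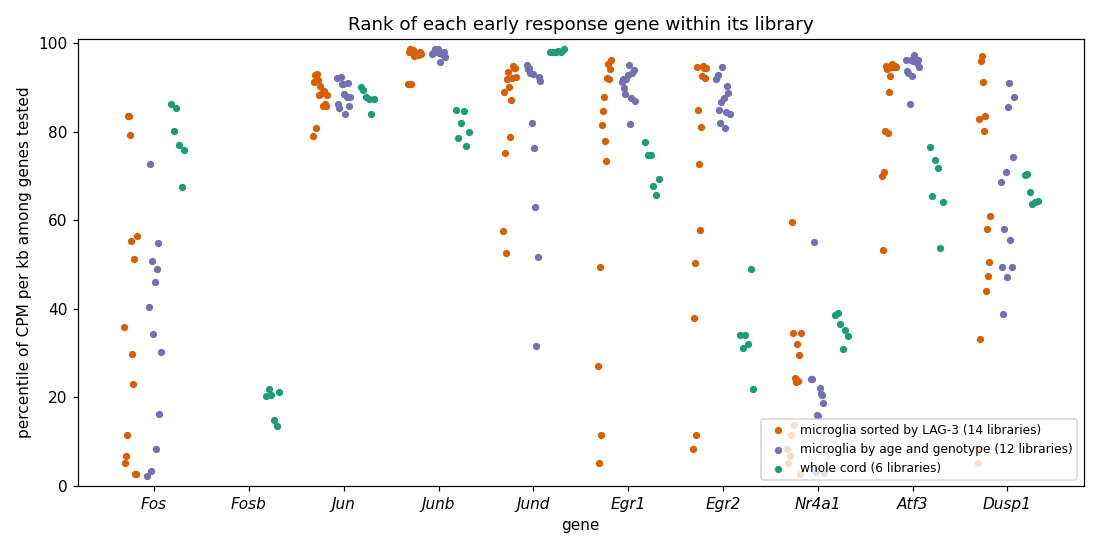
Percentile of each gene's CPM per kilobase among the genes tested in its library (vertical axis), for the 10 genes (horizontal axis), with 1 point per library coloured by experiment. Junb lies at or above the 90.8th percentile in every microglial library and at or below the 84.9th in cord, Jund lies at or above the 97.9th in cord, and Fosb has points only in cord because it was not tested in microglia.

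The first comparison asked whether microglia with much LAG-3 on their surface differ in these genes from those with little. None of the 9 members tested was called (adjusted p under 0.1 and an absolute log2 fold change above 1), where 3.49% of the 16508 genes were called. By unadjusted p under 0.05, 1 member passed (Dusp1). DESeq2 called 1 (Dusp1, adjusted p = 0.0541), where it called 177 of 16107 genes higher and 811 lower. Dusp1 stood at 125, 185, 69.2, 29.7 and 36.1 CPM in LAG-3-low and at 4.05, 8.92, 5.04, 6.16 and 10.5 CPM in LAG-3-high libraries. Every LAG-3-low library was above every LAG-3-high library, with a log2 fold change of -3.68 ± 1.40 (SE), adjusted p = 0.248. Fitted on these 2 groups alone, without the WT libraries, Dusp1 was called at -3.77 (adjusted p = 0.000318), as were Egr1 (adjusted p = 0.000628) and Egr2 (adjusted p = 0.0844) in the other direction. Of all 14651 genes in that fit, 327 were called higher and 1123 lower.

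Egr1 stood at 68.994, 92.3, 113, 58.6 and 45.4 CPM in LAG-3-low and at 194, 306, 184, 244 and 382 CPM in LAG-3-high libraries, which did not overlap, with a log2 fold change of 1.79 ± 0.95 (SE), adjusted p = 0.51. Atf3 stood at 106, 108, 31.3, 58.4 and 81.9 CPM against 136, 143, 127, 130.4 and 128, again without overlap (0.78 ± 0.37 (SE), adjusted p = 0.427). Groups that do not overlap, in either direction, were found for 15.5% of all genes, and for 3 of the 9 members. Fos stood at 1.07, 6.59, 0, 0 and 8.79 CPM in LAG-3-high and at 36.9, 39.9, 30.4, 9.04 and 2.39 CPM in LAG-3-low libraries, which overlapped (-2.85 ± 1.57 (SE), adjusted p = 0.54). The neutrophil and monocyte markers given above likewise had their higher sums in every LAG-3-low library, and their part in the Dusp1 and Fos values was not tested.

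**Figure D2:**
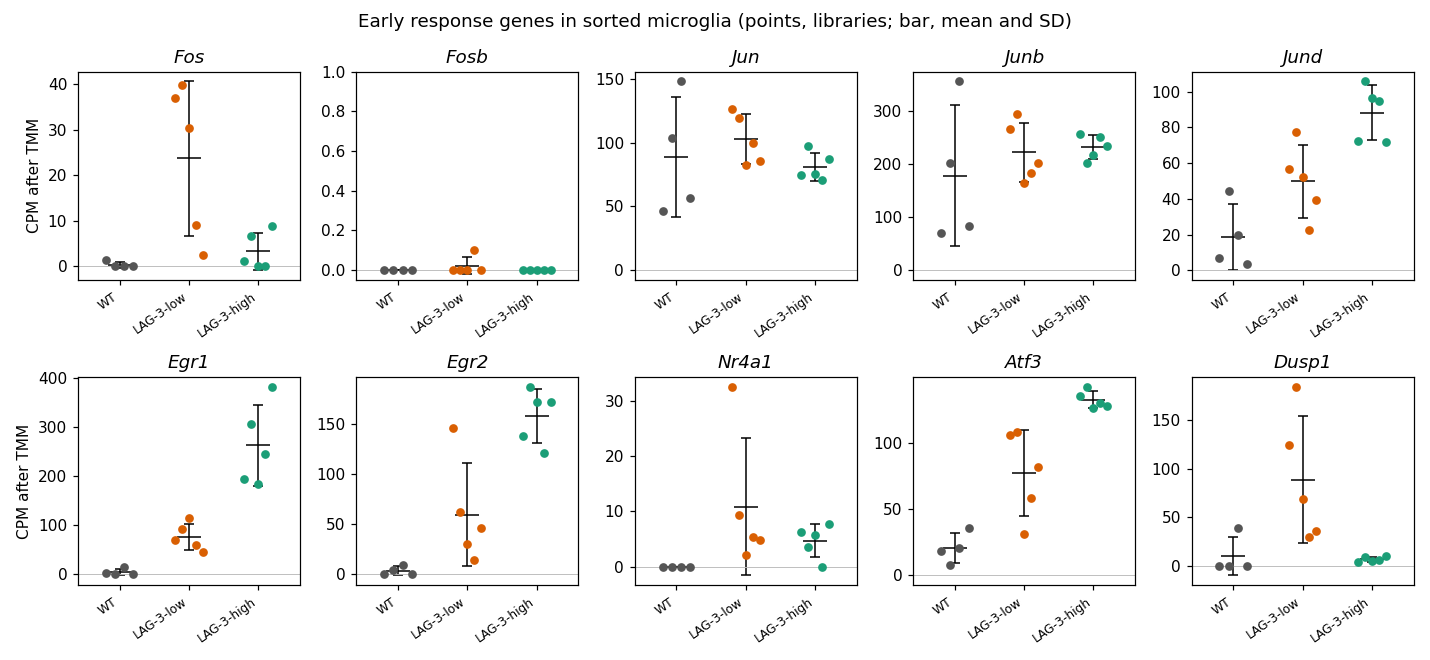
CPM after TMM (vertical axis, linear, a separate scale per gene) of the 10 genes in microglia of the sorted experiment, by group, with 1 point per library and the mean with its SD. Egr1, Egr2 and Nr4a1 are at or near 0 in WT libraries, Dusp1 and Fos are highest on average in LAG-3-low libraries, and Jun and Junb overlap across the 3 groups.

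Against WT, both SOD1G93A populations had more Egr1, Egr2, Atf3 and Nr4a1. In LAG-3-low microglia 5 of the 9 members tested were called higher (Fos, Egr1, Egr2, Atf3 and Nr4a1) and none lower, where 10.9% of genes were called higher and 21.9% in either direction. In LAG-3-high microglia 5 were also called higher (Jund, Egr1, Egr2, Atf3 and Nr4a1) and none lower, against 12.1% of genes called higher and 27.0% in either direction. Libraries did not overlap for 4 of the 9 members in each comparison, all of them higher than WT, against 15.7% and 20.9% of genes in either direction. The median log2 fold change of the 9 members was 3.16 and 2.69, which stays so with Nr4a1 at its lower bound, and that of all genes tested 0.04 and -0.08. Both comparisons use the same 4 WT libraries, so their values are not independent.

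Of the zinc finger factors, Egr1 stood at 0.814, 0, 13.7 and 0 CPM in WT libraries, below each SOD1G93A library. Its log2 fold change was 4.37 ± 1.17 (SE), adjusted p = 0.0224, for LAG-3-low cells, and 6.16 ± 1.28 (SE), adjusted p = 0.00449, for LAG-3-high cells. Egr2 stood at 0, 4.69, 9.52 and 0 CPM in WT, 146, 61.7, 29.967, 14.3 and 45.8 in LAG-3-low and 138, 187, 171, 121 and 171 in LAG-3-high libraries. WT did not overlap with either population, at 4.07 ± 1.20 (SE), adjusted p = 0.0333, and 5.47 ± 1.28 (SE), adjusted p = 0.00876. Without WT library 3, Egr1 was at 7.92 (adjusted p = 0.000183) and 9.72 (adjusted p = 2.83e-05). The LAG-3-low calls of Egr1 and Egr2 were lost without the filter on low counts (adjusted p = 0.1 and 0.125) and in a fit of the 2 groups alone (adjusted p = 0.108 and 0.142).

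Atf3, the stress-induced factor, stood at 18.2, 7.82, 20.3 and 35.6 CPM in WT libraries, and 4 of the 5 LAG-3-low and all 5 LAG-3-high libraries were above the highest of them. Its log2 fold change was 1.91 ± 0.41 (SE), adjusted p = 0.00766, and 2.69 ± 0.43 (SE), adjusted p = 0.000709. Nr4a1 was at 0 counts in all 4 WT libraries, 32.7, 9.28, 2.17, 5.32 and 4.91 CPM in LAG-3-low and 6.30, 3.60, 5.71, 0 and 7.81 CPM in LAG-3-high libraries. Against a floor of 3 counts per WT library (0.193 CPM on average), its mean was at least 56.3-fold higher in LAG-3-low cells and at least 24.3-fold higher in LAG-3-high cells. The LAG-3-low mean was raised by library 1, and the medians of the 2 groups were 5.32 and 5.71 CPM. The adjusted p was 0.00596 and 0.00695, and 1 LAG-3-high library was itself at 0.

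Among the AP-1 subunits, Fos stood at 1.37, 0, 0 and 0 CPM in WT libraries, below all 5 LAG-3-low libraries, with a log2 fold change of 6.03 ± 2.03 (SE), adjusted p = 0.055. Without WT library 1, the only WT library with Fos, the other 3 were at 0 and the adjusted p was 0.0258. For LAG-3-high microglia the value was 3.18 ± 1.78 (SE), adjusted p = 0.218, and it was called as higher without WT library 1 (adjusted p = 0.0505). Jund stood at 7.07, 44.6, 20.1 and 3.42 CPM in WT, 56.9, 77.6, 52.3, 22.7 and 39.2 in LAG-3-low and 72.3, 106, 96.6, 94.8 and 71.7 in LAG-3-high libraries. Only its LAG-3-high level was called (2.23 ± 0.60 (SE), adjusted p = 0.0181), while the LAG-3-low value was 1.41 ± 0.58 (SE), adjusted p = 0.112, and was called by DESeq2 (adjusted p = 0.0414), with RLE size factors (adjusted p = 0.0927), without WT library 2 (2.29, adjusted p = 0.00773) and without LAG-3-low library 4 (1.59, adjusted p = 0.0961). Without WT libraries 1 and 4, its LAG-3-high value was 1.47 (adjusted p = 0.0395).

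Jun and Junb, the other Jun subunits, were not called against WT. Junb stood at 70.2, 201, 355 and 82.2 CPM in WT, 266, 294, 164, 183 and 202 in LAG-3-low and 255, 201, 218, 250.1 and 234 in LAG-3-high libraries, and the WT spread covered both populations. Jun averaged 88.8 ± 46.9 (SD, n = 4), 103 ± 19.7 (SD, n = 5) and 81.2 ± 10.961 (SD, n = 5) CPM in the same order. Dusp1 rested on 1 library. In WT it stood at 0, 0, 39.3 and 0.317 CPM, and without WT library 3 it was called higher in both populations (9.61, adjusted p = 0.000274, for LAG-3-low and 5.94, adjusted p = 0.00181, for LAG-3-high cells), where all 4 WT libraries gave 3.16 ± 1.49 (SE), adjusted p = 0.163 (called by DESeq2, 3.32, adjusted p = 0.055), and -0.52 ± 1.34 (SE), adjusted p = 0.819.

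Other genes of the response, from lists drawn up by name, were called in part. Of 39 further early genes tested, 8 passed as higher and 3 as lower when LAG-3-low cells were set against WT, with a median log2 fold change of 0.30, and 6 and 4 for LAG-3-high cells, with a median of 0.24. Over all genes, 10.9% and 12.1% were called higher in these comparisons, and 21.9% and 27.0% in either direction. Klf10, a zinc finger repressor, had log2 fold changes of 3.86 ± 0.62, adjusted p = 0.00137, and 2.93 ± 0.59, adjusted p = 0.00377. Klf2, a Krüppel-like factor, was lower in LAG-3-high microglia, at -3.50 ± 0.65, adjusted p = 0.00211, and Cebpd, a C/EBP transcription factor, at -2.997 ± 0.28, adjusted p = 8.1e-06. Between the 2 SOD1G93A populations, 4 of the 39 were called lower in LAG-3-high cells, among them Cebpd (-2.38 ± 0.27, adjusted p = 0.000186), Klf2 (-3.20 ± 0.63, adjusted p = 0.0108) and Fosl2, a FOS relative (-3.11 ± 0.87, adjusted p = 0.0763), and none higher. Over all genes, 2.67% were called lower there and 0.818% higher.

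None of 31 upstream kinases and transcription factors was called between the populations. Against WT, 4 were called higher and none lower in each population, where 10.9% (LAG-3-low) and 12.1% (LAG-3-high) of all genes were called higher. Elk1, which binds beside the CArG box with serum response factor, and Braf, a kinase at the head of the ERK cascade, were among them in both, with Braf at 1.62 ± 0.36, adjusted p = 0.00836, and 1.31 ± 0.35, adjusted p = 0.0177. Of 12 dimer partners and corepressors, 5 were called against WT for LAG-3-low cells (2 higher, 3 lower) and 3 for LAG-3-high cells (1 higher, 2 lower). Calls in either direction covered 21.9% and 27.0% of all genes. Nab2, a corepressor of EGR factors, was higher in both (1.98 ± 0.69, adjusted p = 0.0638, and 2.45 ± 0.71, adjusted p = 0.0254). Of 16 genes known to be turned on by cell isolation, 5 and 4 were called higher against WT and none lower, where 10.9% and 12.1% of all genes were called higher. Cd83, an activation marker, was at 1.43 ± 0.22, adjusted p = 0.00104, and 2.70 ± 0.23, adjusted p = 4.23e-06.

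The comparison of LAG-3-/- with LAG-3+/+ microglia asked what loss of LAG-3 does at each stage. At P120 none of the 9 members tested was called by edgeR, where 0.0107% of 18669 genes were, and none passed an unadjusted p of 0.05. None was called by DESeq2, which called 35 of 18351 genes higher and 99 lower. Libraries did not overlap for 3 of the 9 (Junb, Jund and Nr4a1), against 11.5% of genes. At P140 none was called by edgeR, where 10.2% of genes were. In a fit of these 2 groups alone, 0 of 15091 genes were called. In the reported fit 1 member (Jund) passed an unadjusted p of 0.05. DESeq2 called Jund too, with 2370 of 18351 genes higher and 1911 lower. Libraries did not overlap for 1 (Atf3), against 21.1% of genes. The genotype by stage interaction called none, where 0.171% of genes were, and none passed an unadjusted p of 0.05. No member was called by DESeq2 either, where 909 of 18351 genes were called higher and 392 lower.

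Jund, the subunit that many cells keep on at rest, differed by stage in LAG-3+/+ microglia. It stood at 87.4, 75.3 and 75.8 CPM in P120 LAG-3+/+ and at 16.8, 6.14 and 0.691 CPM in P140 LAG-3+/+ libraries, which did not overlap. In LAG-3-/- microglia it stood at 63.3, 24.1 and 58.2 CPM at P120 and at 3.47, 64.4 and 52.1 CPM at P140, which overlapped. Between P120 and P140 the log2 fold change was -3.34 ± 1.07 (SE), adjusted p = 0.0504, in LAG-3+/+ and -0.28 ± 0.97 (SE), adjusted p = 0.98, in LAG-3-/- microglia, and the interaction was 3.06 ± 1.41 (SE), adjusted p = 0.372, so a difference between the genotypes in this change was not shown. The knockout comparison at P140 gave 2.35 ± 1.03 (SE), adjusted p = 0.193, and was called without P140 LAG-3+/+ library 1 (3.58, adjusted p = 0.0989) or without P140 LAG-3-/- library 1 (2.89, adjusted p = 0.0534).

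From P120 to P140 in LAG-3+/+ microglia, 1 member was called higher (Atf3), where 11.9% of genes were, and 1 lower (Jund), where 15.5% were, 27.4% in all. Libraries did not overlap for 3 of the 9 members (Jund, Nr4a1 and Atf3), against 42.2% of genes, so neither share of the members is above that of all genes. Atf3 stood at 139.8, 87.6 and 82.047 CPM at P120 and at 191, 339 and 223 CPM at P140, without overlap, at 1.28 ± 0.42 (SE), adjusted p = 0.0566. In LAG-3-/- microglia it stood at 40.8, 142 and 70.3 and at 170.4, 161 and 103 CPM, which overlapped, at 0.78 ± 0.42 (SE), adjusted p = 0.644. None of the 9 members was called between the stages in LAG-3-/- microglia, where 0% of all genes were, and none had libraries without overlap, against 14.8% of genes. No member passed an unadjusted p of 0.05 there or was called by DESeq2, which called 358 of 18351 genes higher and 91 lower. Both LAG-3+/+ calls were lost without P120 LAG-3+/+ library 3 or without P140 LAG-3+/+ library 2 (adjusted p = 0.1 and 0.141 for Jund, 0.174 and 0.18 for Atf3). The Jund call was also lost without P120 LAG-3+/+ library 1 (adjusted p = 0.107) and without the filter on low counts (adjusted p = 0.17). The Atf3 call was also lost without P120 LAG-3+/+ library 2 (adjusted p = 0.17), without TMM scaling (0.78, adjusted p = 0.161) and when the length and base composition of transcripts were corrected for (0.58, adjusted p = 0.353).

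P140 LAG-3+/+ libraries held fewer detected genes (18896 to 20489) than P120 LAG-3+/+ libraries (24136 to 24942), and the Jund transcript is short and rich in G and C (1667 bases in 1 exon, 67.2% against a median of 48.8% over protein-coding genes). P140 LAG-3-/- library 1, with 3.47 CPM of Jund, held 20260 detected genes. Libraries 2 and 3 of that group, with 64.4 and 52.1 CPM, held 23896 and 23459. Within P140 LAG-3+/+ the lowest Jund (0.691 CPM) stood with the most detected genes (20489). With length and base composition corrected for, the change of Jund between the stages in LAG-3+/+ microglia was -2.92 (adjusted p = 0.0829). The part of RNA quality in it was not tested further.

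The other members were not called in the stage experiment in the reported edgeR fit of all 12 libraries, though some were with other settings. Dusp1 stood at 13.8, 4.64 and 2.56 CPM at P120 and at 43.2, 87.4 and 4.80 CPM at P140 in LAG-3+/+ microglia, which overlapped (2.69 ± 1.09 (SE), adjusted p = 0.11). It was called by DESeq2 (2.83, adjusted p = 0.0149), with RLE size factors (2.83, adjusted p = 0.0947) and without P140 LAG-3+/+ library 3 (3.22, adjusted p = 0.0632). In LAG-3-/- microglia Dusp1 stood at 7.57, 14.9 and 4.08 CPM at P120 and at 3.63, 18.3 and 45.1 CPM at P140, which overlapped. Its log2 fold change between the stages there was 1.34 ± 1.05 (SE), adjusted p = 0.804. Nr4a1 stood at 3.23, 2.9956 and 21.995 CPM in P120 LAG-3+/+, 0.290, 0.398 and 0.691 in P140 LAG-3+/+, 0, 0 and 1.33 in P120 LAG-3-/- and 0.867, 1.69 and 0 CPM in P140 LAG-3-/- libraries. P120 LAG-3+/+ libraries were the highest, apart from every other group in range. Between the stages in LAG-3+/+ microglia Nr4a1 was at -4.34 ± 2.05 (SE), adjusted p = 0.163, and was called by DESeq2 (-4.23, adjusted p = 0.0621) and in a fit of these 2 groups alone (-4.31, adjusted p = 0.0319). The knockout difference at P120 was -4.39 ± 2.05 (SE), adjusted p = 1. The neutrophil markers summed to 2020 to 2811 CPM in P120 LAG-3+/+ and to 3.37 to 7.86 in P120 LAG-3-/- libraries. At P140 their sums ran from 2.94 to 2976 CPM in LAG-3+/+ and from 3.41 to 5176 in LAG-3-/- libraries, where Nr4a1 was low. The part of these markers was not tested.

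Egr1 averaged 136 ± 16.2 (SD, n = 3), 135 ± 25.9 (SD, n = 3), 172 ± 136 (SD, n = 3) and 181 ± 74.4 (SD, n = 3) CPM in P120 LAG-3+/+, P120 LAG-3-/-, P140 LAG-3+/+ and P140 LAG-3-/- libraries, and these groups overlapped. With length and base composition corrected for, Egr1 was called higher at P140 in LAG-3+/+ microglia (1.34, adjusted p = 0.0983), where the uncorrected value was 0.34 ± 0.49 (SE), adjusted p = 0.685. Egr2 averaged 87.4 ± 29.9 (SD, n = 3), 77.2 ± 45.9 (SD, n = 3), 59.4 ± 18.1 (SD, n = 3) and 77.7 ± 27.6 (SD, n = 3) in the same order, Junb 193 ± 6.93 (SD, n = 3), 254 ± 16.9 (SD, n = 3), 247 ± 50.4 (SD, n = 3) and 212 ± 64.4 (SD, n = 3), and Jun 77.5 ± 28.1 (SD, n = 3), 95.2 ± 10.2 (SD, n = 3), 81.8 ± 17.964 (SD, n = 3) and 86.7 ± 32.7 (SD, n = 3). Fos was at or below 18.0 CPM in all 12 libraries and at 0 in 3 of them. Fosb was at 0 in all 12.

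**Figure D3:**
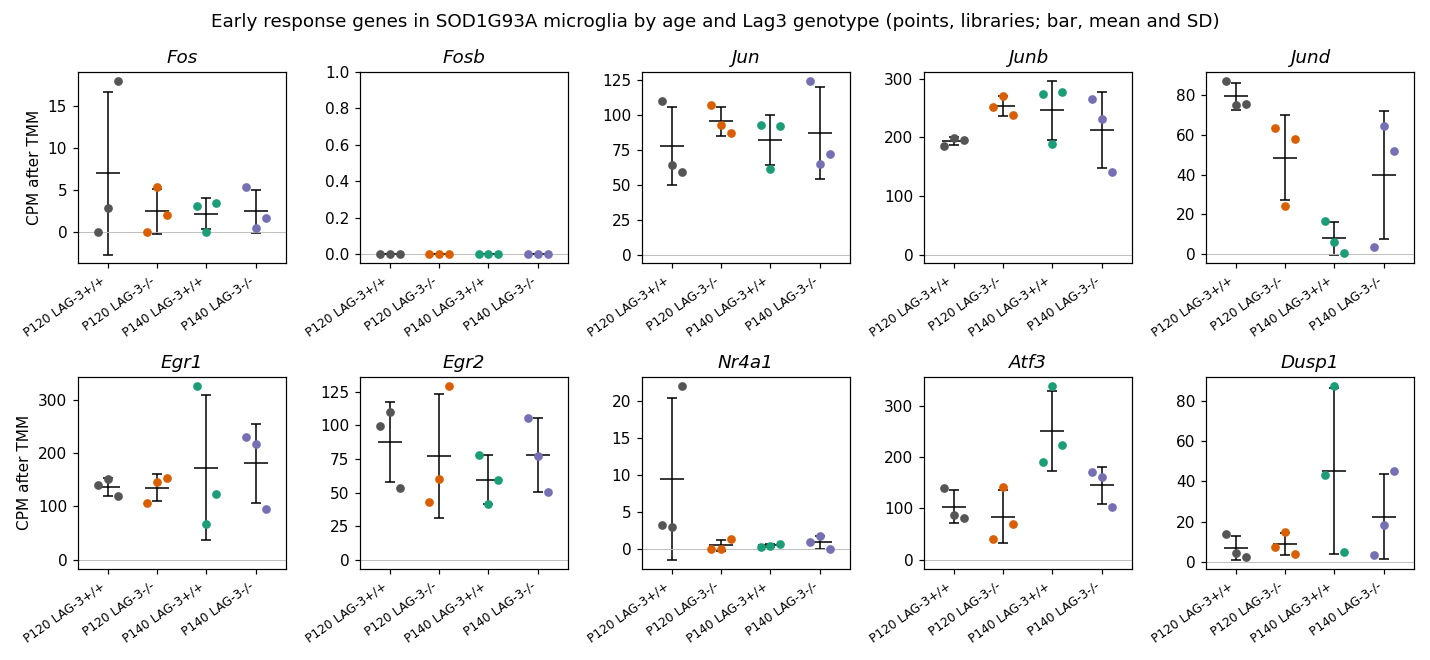
CPM after TMM (vertical axis, linear, a separate scale per gene) of the 10 genes in SOD1G93A microglia by age and Lag3 genotype, with 1 point per library and the mean with its SD over 3 libraries. Jund is lowest and Atf3 highest, on average, in the P140 LAG-3+/+ libraries, and Fosb is at 0 throughout.

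Of 31 upstream kinases and factors tested in LAG-3+/+ microglia, 15 were called lower at P140, where 15.5% of all genes were, 16 were not called and none was higher. Their median log2 fold change was -1.03, where that of all genes was -0.22. Rps6ka4, the kinase MSK2 (-2.15 ± 0.33, adjusted p = 0.00532), Map2k4, a JNK activator (-1.83 ± 0.35, adjusted p = 0.00804), and Mef2a, a MADS box factor (-1.82 ± 0.37, adjusted p = 0.00976), led them. At P140, 7 of the 31 were called higher in LAG-3-/- than in LAG-3+/+ microglia and none lower, where 10.2% of genes were called in either direction, among them Mrtfa, a cofactor of serum response factor (2.57 ± 0.54, adjusted p = 0.0334). The stage and knockout comparisons share the P140 LAG-3+/+ libraries. Calls of the listed genes were not rechecked with the other settings, and the part of the fewer genes detected in P140 LAG-3+/+ libraries was not tested.

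Of 41 further early genes, 6 were called higher and 10 lower at P140 in LAG-3+/+ microglia, where 11.9% and 15.5% of all genes were. Plk2, a polo-like kinase (2.69 ± 0.65, adjusted p = 0.0174), and Myc, a growth regulator (0.93 ± 0.23, adjusted p = 0.02), were higher, while Rhob, a small GTPase (-1.99 ± 0.36, adjusted p = 0.00693), and Zfp36l2, an RNA decay factor (-2.11 ± 0.43, adjusted p = 0.00924), were lower. At P140, 5 of the 41 were called higher in LAG-3-/- than in LAG-3+/+ microglia, Rhob among them (1.41 ± 0.36, adjusted p = 0.0546), and none lower. In that comparison of genotypes 7.22% of all genes were called higher and 10.2% in either direction. Of 15 isolation genes, 7 were called higher and 2 lower at P140 in LAG-3+/+ microglia, led by Cd83 (0.78 ± 0.18, adjusted p = 0.014) and the cytokine Tnf (2.33 ± 0.61, adjusted p = 0.024). Of 12 dimer partners, 3 were called higher and 3 lower, the BATF genes Batf, Batf2 and Batf3 being the higher ones. For the isolation genes and dimer partners the shares of all genes were again 11.9% and 15.5%. No listed gene was called at P120 between genotypes, between stages in LAG-3-/- microglia, or in the interaction.

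Whole cord at P140 asked what the tissue as a whole shows. None of the 10 members was called with the minimum fold change, where 7.52% of 17702 genes were, while 5 passed an adjusted p under 0.1 without it, where 47.1% of genes did. In bulk tissue, fewer cells of a type and less RNA per cell cannot be told apart. Fos stood at 42.5, 32.3 and 43.2 CPM in LAG-3+/+ and at 28.1, 18.2 and 26.2 CPM in LAG-3-/- cord, without overlap, at -0.71 ± 0.17 (SE), adjusted p = 0.00882. Egr1 stood at 57.963, 53.7 and 53.4 against 39.4, 35.9 and 41.5 CPM, without overlap (-0.50 ± 0.10 (SE), adjusted p = 0.00282). Dusp1 (18.973, 19.9 and 16.9 against 14.6, 14.9 and 15.1 CPM) and Nr4a1 (16.8, 16.5 and 14.5 against 9.99, 13.3 and 12.1 CPM) were lower too, at -0.32 ± 0.12 (SE), adjusted p = 0.0456, and -0.43 ± 0.14 (SE), adjusted p = 0.0305.

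Jund went the other way, from 153, 165 and 164 CPM to 263, 216 and 266 CPM, at 0.63 ± 0.12 (SE), adjusted p = 0.00211. Groups did not overlap for 5 of the 10 members, and for 51.6% of all genes. With length and base composition corrected for, Jund was at 0.05 (adjusted p = 0.786) and Nr4a1 at -0.17 (adjusted p = 0.396), while Fos was at -0.998 (adjusted p = 0.00287). Dusp1 passed adjusted p under 0.1 in some fits that leave out 1 library and not in others (0.0575 to 0.164).

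The remaining members of cord did not pass. Fosb stood at 3.17, 3.13 and 2.88 against 1.94, 1.93 and 3.15 CPM (-0.39 ± 0.25 (SE), adjusted p = 0.237), and Jun at 83.5, 87.6 and 76.2 against 80.5, 61.6 and 75.5 CPM (-0.19 ± 0.12 (SE), adjusted p = 0.239). Junb averaged 29.9 ± 3.86 (SD, n = 3) and 29.3 ± 7.09 (SD, n = 3) CPM, Egr2 5.45 ± 0.642 (SD, n = 3) and 6.38 ± 4.74 (SD, n = 3), and Atf3 22.5 ± 4.51 (SD, n = 3) and 16.1 ± 5.91 (SD, n = 3). Cell markers and mitochondrial transcripts moved with genotype in the same libraries. The 9 microglial markers summed to 1242 to 1606 CPM in LAG-3+/+ and to 822 to 1064 in LAG-3-/- cord, and the 13 mitochondrial transcripts to 42919 to 64187 and to 75392 to 139440. The 4 astrocyte markers summed to 12652 to 14942 CPM and to 6630 to 10375, the 3 endothelial markers to 119 to 135 and to 81.6 to 103, and the 4 oligodendrocyte markers to 14854 to 15911 and to 20992 to 25622, none of them overlapping, while the 6 neuron markers overlapped (3610 to 4859 and 4165 to 4496). All of these markers were detected in each cord library, and their part in the differences of Fos, Egr1, Dusp1, Nr4a1 and Jund was not tested.

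Of 47 further early genes tested in cord, 1 was called higher (Dusp2, a MAP kinase phosphatase, 1.09 ± 0.36, adjusted p = 0.0316) and none lower. Over all genes in cord, 4.37% were called higher and 3.15% lower. Of 31 upstream genes, 1 was called lower (Rps6ka3, the kinase RSK2, -1.03 ± 0.11, adjusted p = 0.000239), of 10 dimer partners 1 higher (Batf3, 1.17 ± 0.32, adjusted p = 0.014) and of 16 isolation genes 1 lower (Hspa1b, a heat shock chaperone, -1.28 ± 0.30, adjusted p = 0.0115).

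**Figure D4:**
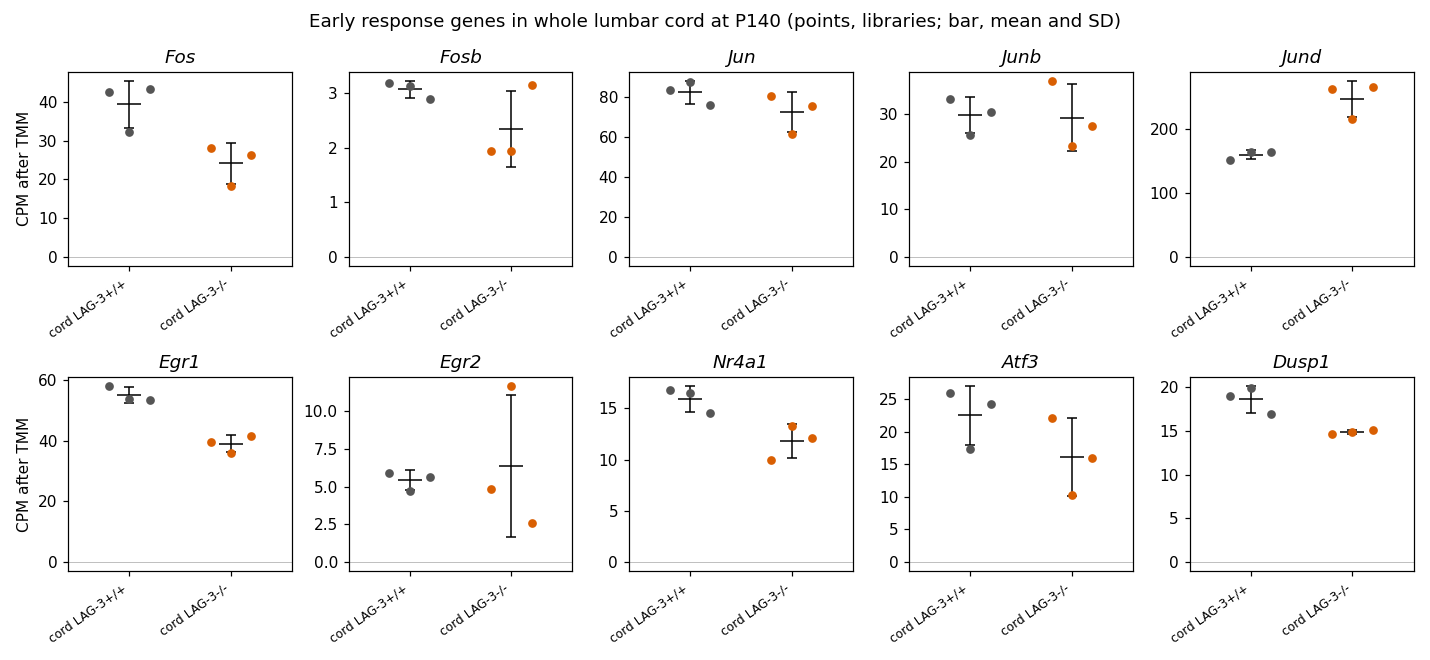
CPM after TMM (vertical axis, linear, a separate scale per gene) of the 10 genes in whole cord of P140 SOD1G93A mice by Lag3 genotype, with 1 point per library and the mean with its SD over 3 libraries. Fos, Egr1, Dusp1 and Nr4a1 are lower and Jund higher in every LAG-3-/- library.

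**Figure D5:**
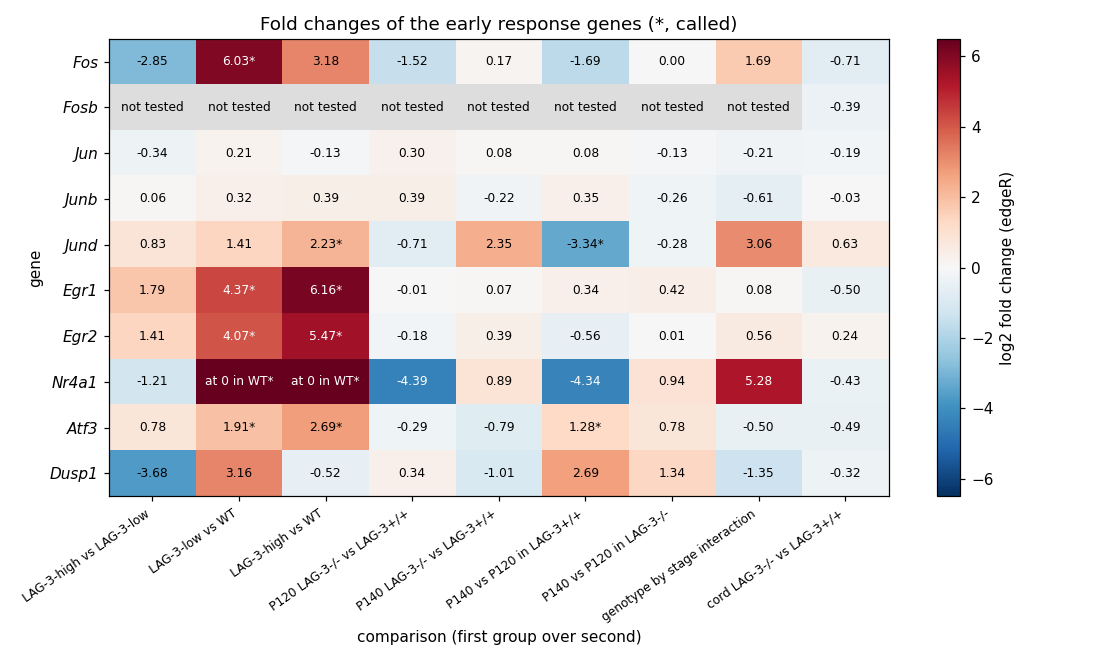
Log2 fold change of each gene (rows) in each of the 9 comparisons (columns, first group over second), coloured from lower (blue) to higher (red), with an asterisk where the gene was called. Nr4a1 against WT is marked without a value because all WT libraries were at 0, and Fosb was tested only in cord.

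Over the 14 libraries of the sorted table, the genes whose log2 CPM went most like the mean of the 9 tested members were Emilin2 (r = 0.973), Arhgap26 (0.968), Adam8 (0.956), Dvl2 (0.95) and Ch25h (0.948). Over the 12 stage libraries they were Snhg17 (0.886), Phf14 (0.842), Ska2 (0.826), Zc3h13 (0.812) and Acad9 (0.805). These are Pearson correlations over libraries that share groups and depth, given as descriptions, and both lists are without a shared gene. Among the members themselves, Jund and Egr2 went most alike in the sorted table (r = 0.943, n = 14), and over the stage libraries Egr1 and Egr2 did (r = 0.631, n = 12).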

How the data were processed

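The authors deposited 3 tables of estimated counts per gene, made per the labels and the study's methods with Trim Galore 0.6.7, Salmon 1.9.0 against GRCm39 and tximport in R 4.2.1, and left unnormalized. Microglial libraries were made with a SMART-seq kit and cord libraries with NEBNext Ultra II Directional. Counts were rounded and tested in edgeR 4.0.16 (R 4.3.3) with the robust quasi-likelihood test, a filter on low counts (minimum count 10, minimum total 15), TMM scaling and Benjamini-Hochberg adjustment over all genes tested, within each table. A gene counted as called when its adjusted p was under 0.1 and, in the sorted and cord tables, its absolute log2 fold change was above 1. The study's methods state these thresholds for LAG-3-high against LAG-3-low and for cord, and those for the other comparisons were chosen here. DESeq2 1.42.0 and the other alternatives are described in the closing section. The genes and lists were chosen with earlier results of these data known. Gene names and positions came from GENCODE on GRCm39, in which all but 66 to 71 identifiers of each table were found. The edgeR fit was tried on counts simulated from its own model, for the first comparison of each table. Such counts hold no differences in cell mix or RNA quality. Genes outside the members were named by rule: per comparison and list the called genes with the 3 smallest adjusted p in each direction, of which examples are given, and per microglial table the 5 genes most like the members' mean. Libraries were not paired by replicate number in the reported fit. A count of 0 allows up to 3 counts, and this floor covers counting error only. Depth ran from 9403475 to 22850586 counts in the sorted table, 23981406 to 49512632 in the stage table and 19430102 to 26994524 in the cord table.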

Additional observations from a re-analysis of the deposited data

Results flagged for a closer look

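In the 3 groups of sorted microglia, 27 combinations of gene and group were examined for a library far from the others by Dixon's gap ratio, and 5 passed the 95% critical value. That value is meant for normally distributed levels. Where all other libraries are at 0, as for Fos and Fosb, the ratio is 1 at any level. The 5 are therefore not set against chance. In WT, Fos stood at 1.37 CPM in library 1 and at 0 in the other 3. WT library 3 held 13.7 CPM of Egr1 against 0 to 0.814 in the others, and 39.3 CPM of Dusp1 against 0 to 0.317. LAG-3-low library 1 held 32.7 CPM of Nr4a1 against 2.17 to 9.28 in the others. Fosb stood at 0.0967 CPM in LAG-3-low library 4 and at 0 in the rest, which is at or under the floor of 3 counts. No cause was tested.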

How the results depend on the processing

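With the replicate number as a block, 0 members were called in LAG-3-high against LAG-3-low, 6 in LAG-3-low against WT (Jund added), 5 in LAG-3-high against WT, 2 in P140 against P120 in LAG-3+/+ (Jund and Atf3) and 0 elsewhere. Of 16508 genes, that fit called 1433 higher and 824 lower in LAG-3-low against WT, and 1714 and 1295 in LAG-3-high against WT. In P140 against P120 in LAG-3+/+ it called 1932 and 2497 of 18669. Same-numbered libraries deviated with a mean correlation of 0.014 in the sorted, -0.00326 in the stage and 0.000967 in the cord table. For LAG-3-low with LAG-3-high libraries of the same number it was 0.0195, 0.0666, -0.00134, 0.0674 and 0.0094. Pairs of these groups with unlike numbers ran from -0.0408 to 0.0352. Whether equal numbers mark LAG-3-low and LAG-3-high cells of the same mice was therefore not settled.

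Counts of members called changed as follows. LAG-3-high against LAG-3-low gave 1 with DESeq2 (Dusp1) and 3 in the fit of the 2 groups alone. Of all genes, those fits called 177 higher and 811 lower of 16107, and 327 and 1123 of 14651. LAG-3-low against WT gave 3 without the filter and 3 in the fit of the 2 groups alone (Fos, Atf3 and Nr4a1 in each), 7 with DESeq2 (Jund and Dusp1 added), 6 with RLE size factors (Jund added) and 5 to 6 when each library was left out. Higher and lower calls over all genes were 1615 and 958 of 40499 without the filter and 909 and 812 of 15439 in the 2 groups. They were 2455 and 2249 of 16107 with DESeq2 and 1885 and 1768 of 16508 with RLE size factors. The P140 knockout comparison gave 1 with DESeq2 (Jund) and 0 to 1 when each library was left out. DESeq2 called 2370 of 18351 genes higher and 1911 lower there. P140 against P120 in LAG-3+/+ gave 4 with DESeq2 (Dusp1 and Nr4a1 added), 1 without TMM (Jund), 1 without the filter (Atf3), 3 with RLE size factors (Dusp1 added), 3 in the fit of the 2 groups alone (Nr4a1 added), 2 with the length and GC correction (Jund and Egr1) and 0 to 3 when each library was left out. Over all genes, DESeq2 called 3178 higher and 3466 lower of 18351, and the fit without TMM 971 and 4120 of 18669. The fit without the filter called 1605 and 2298 of 38695, and that with RLE size factors 2588 and 2619 of 18669. The fit of the 2 groups alone called 2303 and 2458 of 16028, and the corrected fit 1879 and 1828 of 18666. Cord gave 5 without the minimum fold change, where 47.1% of genes passed. The cause was not tested, except that the last follows from its construction.

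Without TMM the median of all genes moved to -0.40 in LAG-3-high against LAG-3-low, -0.39 in LAG-3-high against WT, -0.70 in P140 against P120 in LAG-3+/+, 0.47 in the P140 knockout comparison and -0.13 in cord (also -0.29 in P140 against P120 in LAG-3-/- and 0.40 in the interaction). In the first 5 of these the share of calls that were lower moved from 76.6% to 94.7%, 55.2% to 68.4%, 56.6% to 80.9%, 29.4% to 10.7% and 41.9% to 63.2%. With RLE size factors that share was 39.6% in the P140 knockout comparison.

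The length and GC correction and the fit without WT libraries 1 and 4 were chosen after seeing the data. Several members changed the sign of their log2 fold change. Each of these was uncalled in the reported fit, and only Dusp1 in LAG-3-high against WT, without WT library 3, was called after the change. The cause was not tested. Signs turned with DESeq2 for Junb to -0.0028 in LAG-3-high against LAG-3-low, Egr1 to 0.0090 in the P120 knockout comparison, Egr1 to -0.0069 in the interaction. Signs turned with RLE size factors for Junb to -0.0028 in LAG-3-high against LAG-3-low, Egr1 to 0.0090 in the P120 knockout comparison, Egr1 to -0.0070 in the interaction. Signs turned without TMM for Junb to -0.31 in LAG-3-high against LAG-3-low, Egr1 to 0.098 in the P120 knockout comparison, Junb to 0.059 in the P140 knockout comparison, Jun to -0.39, Junb to -0.13 and Egr1 to -0.090 in P140 against P120 in LAG-3+/+, Fos to -0.32 and Egr2 to -0.33 in P140 against P120 in LAG-3-/-. Signs turned without the filter for Jun to 0.0087 in LAG-3-high against WT, Fos to -0.022 and Egr2 to -0.012 in P140 against P120 in LAG-3-/-. Signs turned with the replicate block for Dusp1 to 3.01 in LAG-3-high against WT, Egr1 to 0.040 in the P120 knockout comparison, Fos to -0.62 and Egr2 to -0.026 in P140 against P120 in LAG-3-/-. Signs turned in fits of the 2 groups alone for Junb to -0.018 in LAG-3-high against LAG-3-low, Egr1 to 0.016 in the P120 knockout comparison. Signs turned with the length and GC correction for Jun to -0.29 in LAG-3-low against WT, Jun to -0.068, Egr1 to -0.58 and Nr4a1 to -0.020 in the P140 knockout comparison, Fos to -0.34 and Egr2 to -0.12 in P140 against P120 in LAG-3-/-, Egr1 to -0.56 in the interaction. Signs turned without WT libraries 1 and 4 for Jun to -0.20 and Junb to -0.23 in LAG-3-low against WT, Junb to -0.21 in LAG-3-high against WT. With each library left out in turn, the members that turned sign had these ranges. In LAG-3-high against WT it was Jun from -0.31 to 0.25 and Dusp1 from -0.93 to 5.94. In LAG-3-high against LAG-3-low it was Junb from -0.030 to 0.18. In the P120 knockout comparison it was Egr1 from -0.12 to 0.13, Egr2 from -0.78 to 0.11, Fos from -2.81 to 0.75, Dusp1 from -0.26 to 1.29 and Atf3 from -0.89 to 0.035. In P140 against P120 in LAG-3+/+ it was Jun from -0.090 to 0.41, Fos from -2.28 to 0.58 and Egr1 from -0.52 to 0.72. In the interaction it was Fos from -0.58 to 2.98, Egr1 from -0.30 to 0.94 and Atf3 from -0.82 to 0.11. In P140 against P120 in LAG-3-/- it was Fos from -1.26 to 1.29, Egr2 from -0.28 to 0.61, Jund from -0.83 to 0.26, Jun from -0.48 to 0.053 and Nr4a1 from -0.028 to 7.89. In the P140 knockout comparison it was Fos from -1.10 to 0.65, Jun from -0.26 to 0.23, Egr1 from -0.31 to 0.92, Nr4a1 from -0.11 to 1.47 and Junb from -0.40 to 0.013. In cord it was Junb from -0.24 to 0.11 and Egr2 from -0.56 to 0.59.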
